A study of Mus musculus with 12 samples.

Results

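Freshly isolated hepatocytes labelled Dhep were compared with freshly isolated hepatocytes labelled FF across all genes detected on Illumina mouse bead arrays. The comparison rests on 6 of the 12 arrays of the study, 3 per group, chosen by the genotype and tissue in the labels, and the other 6 arrays hold whole liver of both genotypes. Dhep hepatocytes came from a Cre-positive male C57BL6/J mouse of the IkkβΔhep line, in which Ikkβ is deleted in hepatocytes. FF hepatocytes came from a Cre-negative male C57BL6/J mouse of the IkkβF/F line, so that both genotypes carried the floxed Ikkβ allele. The labels give an age of 4 to 6 weeks, and the description of the study 6 to 8 weeks. No source used here names the promoter that drives Cre. The description of the study counts 4 mice and 4 RNA samples for 12 arrays. Each set of 3 arrays was treated as repeats of 1 RNA sample, and the spread and p-values below measure the arrays, not the variation between mice. Counted by RNA sample, the comparison is 1 against 1 and has no test.

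Ikkβ, encoded by Ikbkb, is the catalytic subunit of the IκB kinase complex that releases NF-κB into the nucleus after signals such as TNF and bacterial lipopolysaccharide. In hepatocytes NF-κB drives acute phase and survival genes. Class II MHC molecules display peptides to helper T cells and are normally made by macrophages, dendritic cells and B cells, while interferon-γ, acting through the coactivator CIITA, can switch on class II genes in other cells. Interferon-inducible GTPases are another family of interferon-γ targets, which attack the vacuoles of intracellular microbes. Hepatocytes are separated from Kupffer cells (the resident macrophages), sinusoidal endothelium and stellate cells by perfusion and low-speed centrifugation, and such preparations retain some of those cells.

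The 75th percentile of raw intensity was 105 to 119 on the Dhep arrays, against 75.5 to 85.7 on the FF arrays, with 94.7 to 115 on the liver arrays. After quantile normalization, Pearson's r across probes was 0.998 between arrays of a group and 0.974 to 0.976 between Dhep and FF hepatocytes. Levels below are normalized log2 signals with an offset of 50 added before the log, which shrinks the fold of dim probes. A floor of 6.06, or 66.7 in linear units, separates kept from dim probes, and 22859 of 45281 probes were kept. A probe was called when limma's adjusted p was under 0.05 and the log2 difference, Dhep minus FF, was at least 1 in size (a fold of 2).

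In isolated hepatocytes 278 probes were higher in Dhep (1.22% of those tested) and 283 were lower (1.24%). With 1 probe a gene, 180 of 12008 genes were higher (1.5%) and 146 were lower (1.22%). Higher probes reached larger differences: 56 of them were at a fold of 4 or more and 23 at a fold of 8 or more, against 12 and 0 of the lower probes. The arrays of the groups did not overlap on any called probe, but neither did they on 58.8% of all kept probes. At this spread between arrays, a small difference passed the test easily: 6322 probes were higher and 5990 lower without the fold threshold. When arrays were scaled to a common median in place of quantile normalization, the median of all probes moved to 0.17 and the count became 914 higher and 73 lower. All 278 higher probes and 73 of the 283 lower ones were called in the same direction with that scaling. For each of the 43 gene lists and 13 marker lists described below, median scaling gave at least as many higher and no more lower members. The higher count became 7 for JAK, STAT and IRF signalling, 13 for type I interferon, 6 each for cell death, Toll-like receptors, glucose and phase II, and 5 for periportal genes.

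**Figure D1:**
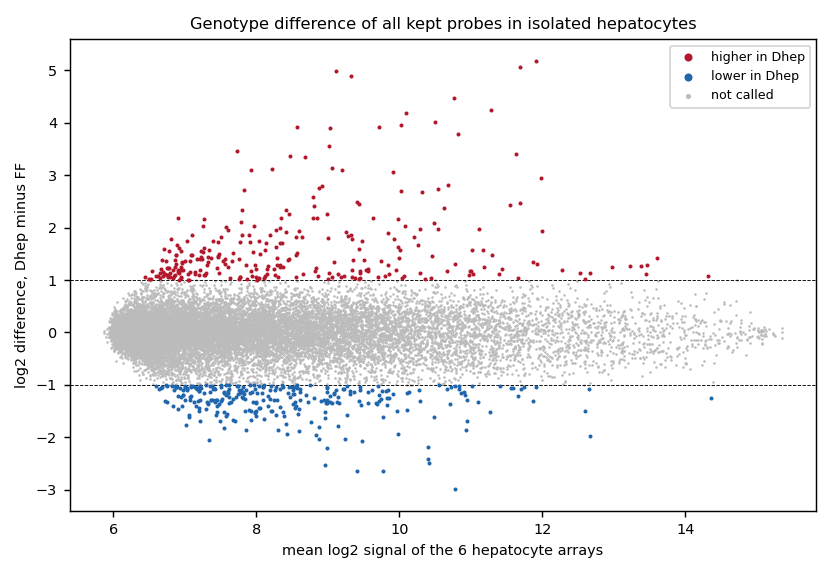
Log2 difference (Dhep minus FF) against mean log2 signal for the 22859 kept probes in isolated hepatocytes, with dashed lines at a fold of 2. The 278 probes higher in Dhep reach 5.18, and the 283 lower ones reach -2.99.

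The targeted gene was measured first. Ikbkb, on its 1 kept probe of 3, had log2 signals of 7.67, 7.62 and 7.67 in Dhep hepatocytes, against 7.28, 7.39 and 7.39 in FF hepatocytes (difference 0.31, SE 0.06, not called). Where that probe lies in the gene was not examined, and its level is no check of the deletion. The regulatory subunit gene Ikbkg differed by 0.48, 0.06 and 0.09 on its 3 kept probes. Chuk, the gene of the other catalytic subunit, could not be measured, because no probe of that name was found on the array.

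The level of 26 hepatocyte markers was compared between the groups. Their median log2 signal was 13.75 to 13.84 on the Dhep arrays and 13.73 to 13.80 on the FF arrays, and 0 of 26 markers were called in either direction. It was nearly as high in whole liver, at 13.54 to 13.65 in Dhep and 13.61 to 13.71 in FF. These markers are therefore no check of how pure the preparations were. The albumin probe was dim for so abundant an RNA, at 7.82, 8.17 and 8.33 in Dhep and 8.19, 8.37 and 8.50 in FF hepatocytes, with overlapping arrays. Among the markers the plasma carriers Trf, or transferrin (-0.03), and Ttr, or transthyretin (-0.11), the apolipoprotein Apoa1 (0.02) and the transcription factor Hnf4a (0.03) stood near 0. Among 26 hepatocyte transcription factors, with a median of -0.03, or 0.32 with median scaling, none was called on its brightest probe, where the widest differences were Hhex (0.83), Cebpa (0.69) and Zbtb20 (-0.68). The other kept probe of Zbtb20 was called lower, at -1.43.

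Antigen presentation by MHC class II held the largest differences of the comparison. The promoters of class II genes are known for a shared X and Y box, through which CIITA and its partners act. The 150 bases before the start of 4 class II genes that rose are shown because the genes lie together on chromosome 17 and moved together (RefSeq, GRCm38.p6, each 5′ to 3′ on the strand of its gene). Capitals mark the Y box core GATTGG and the X1 core AGNAACNGA, on either strand.
H2-Eb1, chr17:34305717-34305866, plus strand: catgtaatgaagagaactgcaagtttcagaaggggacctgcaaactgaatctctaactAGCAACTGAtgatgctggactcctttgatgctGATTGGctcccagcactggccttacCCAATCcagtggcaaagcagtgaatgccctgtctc
H2-Aa, chr17:34287824-34287973, minus strand: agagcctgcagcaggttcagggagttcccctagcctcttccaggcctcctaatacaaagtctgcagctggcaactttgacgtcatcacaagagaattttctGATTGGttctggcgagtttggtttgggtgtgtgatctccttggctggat
H2-DMb1, chr17:34153041-34153190, plus strand: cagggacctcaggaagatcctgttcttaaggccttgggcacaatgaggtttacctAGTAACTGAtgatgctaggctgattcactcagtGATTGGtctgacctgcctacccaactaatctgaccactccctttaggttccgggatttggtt
H2-DMb2, chr17:34145099-34145248, plus strand: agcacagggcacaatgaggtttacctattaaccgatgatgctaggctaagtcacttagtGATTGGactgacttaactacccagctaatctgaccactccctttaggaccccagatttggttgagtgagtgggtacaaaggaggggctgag
The Y box core stood in all 4 of these windows, with its first base 60 bases before the start in H2-Eb1, 49 in H2-Aa, 62 in H2-DMb1 and 91 in H2-DMb2. H2-DMa, which also rose, is not shown. Its match to GATTGG began 199 bases before the start, outside those 150 bases, so the count of 4 depends on the genes chosen. The X1 core stood in H2-Eb1, 92 bases before the start, and in H2-DMb1, 95 bases before it. Over windows of 300 bases, from 250 before the start to 50 after it, 8 of the 11 class II list genes with a promoter sequence held GATTGG, against 22.6% of 9723 measured genes. The X1 core was held by 4 of the 11, against 5.72% of the 9723. Neither core was particular to the class II list. The X1 core was also held by 4 of 10 interferon-inducible GTPase genes, and GATTGG by 10 of 19 class I genes. Of 136 genes higher in Dhep hepatocytes, 20.6% held GATTGG and 11.8% the X1 core.

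Cd74, the invariant chain and chaperone of class II, had log2 signals of 14.52, 14.50 and 14.47 in Dhep hepatocytes, against 9.30, 9.31 and 9.35 in FF hepatocytes, a 36.3-fold difference (5.18, SE 0.05, limma adjusted p = 4.62e-27). All 3 of its kept probes rose, by 4.99 or more. H2-Ab1, the β chain of I-A, stood at 13.38, 13.45 and 13.36 in Dhep, against 9.19, 9.13 and 9.16 in FF hepatocytes, and its 3 kept probes differed by 3.91 to 4.48. No array of one group came near the other group for either gene.

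H2-Eb1, the β chain of I-E, was at 12.19, 12.14 and 12.21 in Dhep and at 8.10, 7.88 and 8.03 in FF hepatocytes (4.18, SE 0.06). H2-Aa, the I-A α chain, was at 12.74, 12.65 and 12.76 in Dhep and at 8.95, 8.88 and 8.95 in FF hepatocytes (3.79, SE 0.06).

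The genes that load peptide onto class II molecules followed the chains. H2-DMa stood at 11.11, 10.78 and 11.07 in Dhep, against 7.10, 7.05 and 7.10 in FF hepatocytes (3.90). Its partner gene H2-DMb1 stood at 10.37, 10.41 and 10.28 in Dhep, against 6.94, 7.09 and 7.00 in FF hepatocytes (3.35). H2-DMb2 differed by 3.11 on one probe and by 0.23 on its other kept probe, and the DM β genes are near copies whose probes may not tell them apart. Ciita, the coactivator of class II transcription, was at 7.94, 8.03 and 8.06 in Dhep hepatocytes and under the floor on all 3 FF arrays, so that it was at least 3.86-fold higher. The lysosomal proteases Ctss (1.82) and Lgmn (1.42), which trim the invariant chain and antigens, also rose. In all, 10 of 14 measured genes of the list were higher and 0 lower, with a median difference of 2.65 against 0.00 over all 12008 genes. Of these 14, 3 lay under the floor on all FF hepatocyte arrays and were kept only through another group. The members not called were H2-Eb2 (0.72), the thiol reductase Ifi30 (0.23, although its other probe was called at 1.36), and the DO chains H2-Oa (0.16) and H2-Ob (0.10), which are best known from B cells. Of 28 macrophage markers 17 were also higher in Dhep hepatocytes and 1 was lower. In RNA from a mixed preparation, fewer cells of a type and less RNA per cell cannot be told apart.

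**Figure D2:**
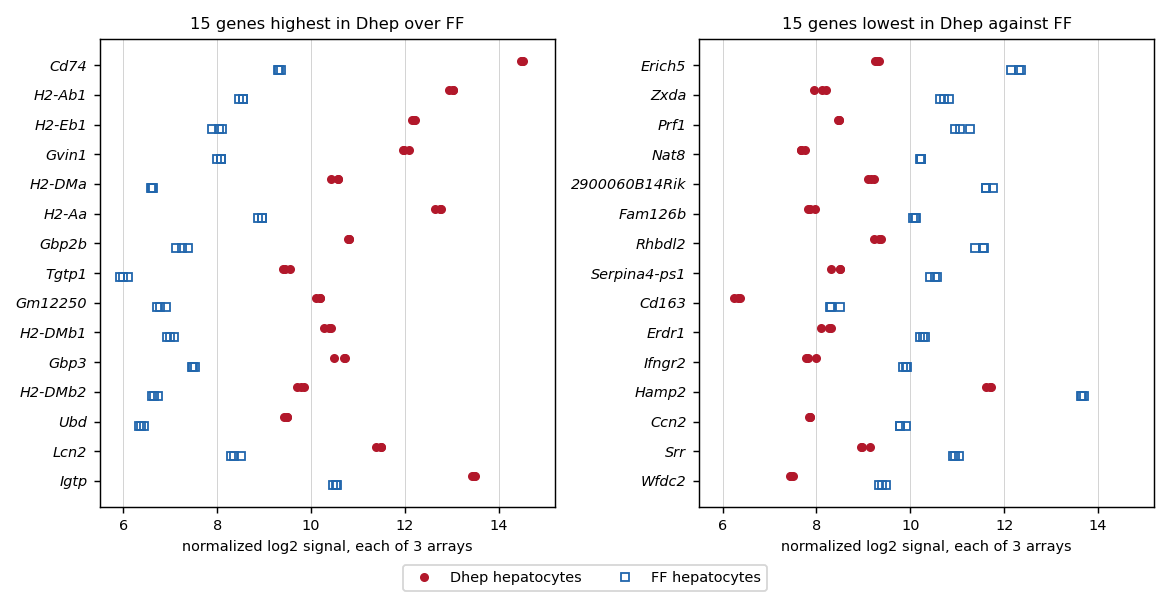
Normalized log2 signal on each of the 3 arrays per group for the 15 genes with the largest called difference in each direction, Dhep hepatocytes as filled circles and FF hepatocytes as open squares. Only probes whose Dhep and FF arrays do not overlap were eligible. By that rule the Dhep arrays lie wholly above the FF arrays on the left and wholly below them on the right. H2-Ab1, H2-DMa and Gbp3 are drawn on their probe with the largest difference.

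Class I presentation and the immunoproteasome moved less far. Of 27 measured genes 12 were higher and 0 lower, with a median of 0.88. The immunoproteasome subunit Psmb9 had 11.82, 11.84 and 11.78 in Dhep, against 9.37, 9.50 and 9.46 in FF hepatocytes (2.37, SE 0.05). Psmb8, another of its catalytic subunits, was at 11.52, 11.54 and 11.51 in Dhep, against 9.51, 9.41 and 9.39 in FF hepatocytes (2.09). The groups were well separated for both subunits.
The peptide transporter Tap1 rose by 1.91, and tapasin (Tapbp), which bridges the transporter to class I chains, by 2.33 on its brightest probe and 1.11 on its other. Among the chains, H2-D1 (1.29), H2-T23 (1.41), H2-Q7 (1.35) and H2-M3 (1.05) rose, while H2-K1 stood at 0.67 (with another probe called at 1.13), B2m at 0.12 and H2-Q10, a class I gene secreted by liver, at -0.76. Class I chains are close relatives, so a probe may read several of them. Of the 30 measured subunits of the constitutive proteasome none was called, and their median was 0.22.

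Interferon-inducible GTPases were the third group with large differences. The same 150 bases before the start are shown for 6 of those that rose, in the order of their differences, with capitals marking the interferon response core GAAANNGAA and the STAT (GAS) core TTCNNNGAA on either strand.
Gbp2b, chr3:142594697-142594846, plus strand: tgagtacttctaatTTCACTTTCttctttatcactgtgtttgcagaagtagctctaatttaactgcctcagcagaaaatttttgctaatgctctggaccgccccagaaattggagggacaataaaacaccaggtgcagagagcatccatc
Tgtp1, chr11:48992247-48992396, minus strand: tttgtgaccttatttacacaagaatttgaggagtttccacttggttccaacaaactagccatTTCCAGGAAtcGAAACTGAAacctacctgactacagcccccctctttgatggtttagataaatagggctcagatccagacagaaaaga
Gm12250, chr11:58183693-58183842, plus strand: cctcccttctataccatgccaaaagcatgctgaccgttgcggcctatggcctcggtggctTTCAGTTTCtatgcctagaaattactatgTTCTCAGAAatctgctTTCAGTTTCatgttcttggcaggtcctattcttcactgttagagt
Igtp, chr11:58199406-58199555, plus strand: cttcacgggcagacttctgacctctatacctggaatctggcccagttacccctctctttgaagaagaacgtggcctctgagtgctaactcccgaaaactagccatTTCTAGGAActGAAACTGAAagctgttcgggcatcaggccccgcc
Gbp2, chr3:142620513-142620662, plus strand: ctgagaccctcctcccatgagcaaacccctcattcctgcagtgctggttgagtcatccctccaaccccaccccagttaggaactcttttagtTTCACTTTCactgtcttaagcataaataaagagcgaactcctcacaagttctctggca
Irgm2, chr11:58214827-58214976, plus strand: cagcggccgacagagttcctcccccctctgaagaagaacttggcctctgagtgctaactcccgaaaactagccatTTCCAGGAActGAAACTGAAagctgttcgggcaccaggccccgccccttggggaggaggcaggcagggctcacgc
Each of the 6 windows held the interferon response core, on the reverse strand in Gbp2b, Gbp2 and Gm12250. Tgtp1, Gm12250, Igtp and Irgm2 also held the GAS core, and in Tgtp1, Igtp and Irgm2 it lay just upstream of the interferon response core. The windows of Igtp and Irgm2 share a long run of nearly identical bases, so their matches may not be independent. Gbp3, which rose more than Igtp, Gbp2 and Irgm2, is not shown. It held the interferon response core but not the GAS core, so these counts depend on the genes chosen. Over the windows of 300 bases, 9 of the 10 list genes with a promoter sequence held GAAANNGAA, against 8.78% of 9723 measured genes, and 5 of the 10 held TTCNNNGAA, against 8.51%. GAAANNGAA was held by 27.2% of 136 genes higher in Dhep hepatocytes and by 7.02% of 114 genes lower in them. TTCNNNGAA was held by 19 of the 136 and by 6 of the 114, and the NF-κB core GGNNTTTCC by 15 and 9 genes, against 7.03% of the 9723. GAAANNGAA and the X1 core overlap in some windows, Igtp and Irgm2 among them. These matches describe letters in the windows and do not show binding.

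Gvin1, a very large inducible GTPase, had log2 signals of 12.08, 11.98 and 11.96 in Dhep hepatocytes, against 8.08, 8.00 and 8.09 in FF hepatocytes (3.95, SE 0.06). Gbp2b, a guanylate-binding protein, had 10.82, 10.78 and 10.80 in Dhep, against 7.37, 7.24 and 7.12 in FF hepatocytes (3.56, SE 0.06). Gbp3 differed by 3.10 and 3.14 on its kept probes. Each array of Dhep hepatocytes lay above each array of FF hepatocytes for these genes.

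Tgtp1, an immunity-related GTPase, had 9.45, 9.39 and 9.55 in Dhep, and of its FF arrays (5.92, 5.99 and 6.09) only 1 reached the floor. Gm12250 had 10.18, 10.19 and 10.09 in Dhep, against 6.72, 6.78 and 6.90 in FF hepatocytes (3.36). Igtp was bright in both groups, at 13.46, 13.42 and 13.50 in Dhep and 10.53, 10.47 and 10.54 in FF hepatocytes (2.94). Ifi47 (2.82), Gbp2 (2.79, and 0.56 on its other probe) and Irgm2 (2.47) followed. Iigp1 was at least 2.73-fold and Gbp5 at least 2.83-fold higher, their FF arrays lying under the floor, while other probes stood at 0.29 for Gbp5 and at 0.20 to 1.13 for Iigp1. Of 17 measured genes 14 were higher and 0 lower, with a median of 1.87. Of these 17, 2 lay under the floor on all FF hepatocyte arrays and were kept only through another group. The 3 not called on their brightest probe were Irgm1 (0.24, although its other 2 kept probes were called at 1.22 and 2.69) and the antiviral GTPases Mx1 (0.15) and Mx2 (-0.18, or 0.16 with median scaling), of which the Mx genes are known for type I interferon.

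Genes best known for type I interferon moved less. Of 35 measured genes 8 were higher and 1 lower, with a median of 0.32, or 0.67 with median scaling. The deoxynucleotide hydrolase Samhd1 (1.42), the ADP-ribosyltransferases Parp12 (1.40) and Parp14 (1.12), and the oligoadenylate synthetase genes Oasl2 (1.26) and Oas1g (1.17) rose. Their other probes stood at 0.76 and 0.84 for Samhd1, 0.24 and -0.07 for Parp14, 0.40 for Oasl2 and 0.83 for Oas1g, none of them called. Ifi27l2a fell by 1.32, and with median scaling stood at -0.81, no longer called. Rsad2, an antiviral enzyme, stood at -0.85 and Ifit2 at 0.80.

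Irf1, a transcription factor downstream of interferon-γ, had 11.59, 11.50 and 11.49 in Dhep, against 9.61, 9.44 and 9.58 in FF hepatocytes (1.98), and 4 of its 5 kept probes were called. Irf8, a factor of myeloid cells, rose by 1.24. Ifngr2, a chain of the interferon-γ receptor, had 7.77, 7.99 and 7.83 in Dhep, against 9.90, 9.85 and 9.93 in FF hepatocytes on its brightest probe (-2.03), but its other 2 kept probes did not fall and reached 0.30. These were the called genes among 26 of JAK, STAT and IRF signalling, whose median was 0.37. Ubd, a ubiquitin-like modifier induced by interferon-γ, had 9.49, 9.49 and 9.43 in Dhep, against 6.33, 6.44 and 6.37 in FF hepatocytes (3.09).

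Chemokines, adhesion molecules and other inflammatory genes showed single large differences within lists that mostly did not pass. Cxcl9, a chemokine that draws T cells, had 11.39, 11.36 and 11.37 in Dhep, against 8.62, 8.69 and 8.70 in FF hepatocytes (2.70, SE 0.05). Of 28 chemokines and receptors, it, Cxcl10 (1.12) and Ccl24 (1.12) rose and 0 fell, with a median of 0.04. Among 16 leukocyte adhesion genes 3 rose and 0 fell: Vcam1, the ligand of VLA-4 (2.49, and 0.25 on the lowest of its 3 probes), Cd44, the hyaluronan receptor (1.96, though 1 of its 4 probes stood at -0.11), and Icam1, the ligand of LFA-1 (1.25).

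In the IKK and NF-κB pathway 0 of 26 genes were called, with a median of 0.18, or 1 higher and a median of 0.53 with median scaling. The widest were Rbck1 (0.61), a subunit of the linear ubiquitin ligase, the kinase Tbk1 (0.56) and Ikbkg. The inhibitor gene Nfkbia, itself a classical target, stood at -0.14 and Rela, the p65 subunit, at 0.18. Of 30 target genes 8 were higher and 0 lower, with a median of 0.36, or 0.67 with median scaling. Lcn2, a siderophore-binding acute phase protein, led them with 11.39, 11.49 and 11.48 in Dhep, against 8.28, 8.36 and 8.51 in FF hepatocytes (3.07, SE 0.06). Several of the 8, such as Irf1, Tapbp and Cxcl10, are also interferon targets. The survival genes Cflar (-0.93), Birc3 (0.04) and Xiap (0.36), the mitochondrial dismutase Sod2 (-0.16) and Tnf (0.26) were not called.

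Cell death genes had 2 of 29 higher and 0 lower. Casp1, the inflammasome protease, had 9.60, 9.49 and 9.55 in Dhep, against 7.79, 7.81 and 7.59 in FF hepatocytes (1.81). Mlkl, the effector of necroptosis, rose by 1.71, and by 0.55 on its other probe. Casp8 stood at 0.84, Gsdmd at 0.75 and Fas at 0.66. Of 30 Toll-like receptor and inflammasome genes 2 rose, Tlr2 (1.86) and Tlr13 (1.15, and 0.29 on its other probe), receptors for bacterial lipoproteins and bacterial ribosomal RNA, and 0 fell.

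Among 31 acute phase genes 3 rose and 2 fell. Besides Lcn2, serum amyloid Saa1 rose, at 13.64, 13.62 and 13.58 in Dhep, against 12.33, 12.34 and 12.38 in FF hepatocytes (1.26, and 0.63 on its other probe), and Saa3 rose by 1.38. Hamp2, a hepcidin gene, fell, at 11.62, 11.72 and 11.69 in Dhep, against 13.63, 13.66 and 13.70 in FF hepatocytes (-1.98), whereas its relative Hamp stood at -0.30. Il6ra, the receptor through which IL-6 induces acute phase genes, fell by 1.27 on its brightest probe, while another probe stood at 0.02, and its call was lost with median scaling (-0.80). Of 25 complement genes 4 rose and 0 fell: the C1q chains C1qb (1.97) and C1qc (1.79) and properdin (Cfp, 1.26), all known from macrophages, and C1s1 (1.06). In the list of iron and haem genes the haem-degrading enzyme Hmox1 (1.82) and the iron exporter Slc40a1 (1.01) rose.

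Markers of other liver cells differed between the hepatocyte preparations as well. Of 28 markers of Kupffer cells and macrophages 17 were higher and 1 lower in Dhep hepatocytes, with a median of 1.17. Their summed linear signal was 39099 to 39790 on the Dhep arrays and 14480 to 14840 on the FF arrays, and no marker was under the floor on all arrays of either group. Adgre1, which encodes F4/80, had 11.08, 11.11 and 11.08 in Dhep, against 9.03, 9.05 and 9.10 in FF hepatocytes (2.03). Marco (2.02) and Vsig4 (1.67), receptors of resident macrophages, and the colony stimulating factor receptor Csf1r (1.92) rose as well. Cd163, a haemoglobin scavenger receptor of the same cells, went the other way, at 6.33, 6.25 and 6.38 in Dhep, against 8.28, 8.51 and 8.32 in FF hepatocytes (-2.05). The summed signal of the 14 class II list genes was 52330 to 53233 in Dhep hepatocytes and 3512 to 3631 in FF hepatocytes. The macrophage markers therefore moved with the class II, interferon and complement genes, and their part in those results was not tested. Lists of B and plasma cells (0 of 7 called, median -0.09) and platelets (0 of 11, -0.01) held no called gene. Of 14 dendritic cell markers 1 rose (Irf8) and 1 fell (Siglech, -1.46, and -0.13 on its other probe), and of 13 T and NK cell markers 0 rose and 1 fell. Neutrophil markers had 3 of 11 higher, namely Lcn2, Fpr2 (2.18) and S100a8 (1.31), while S100a9 stood at 0.49 and the granule genes Elane, Mpo, Ltf and Camp stood between -0.08 and -0.02.

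**Figure D3:**
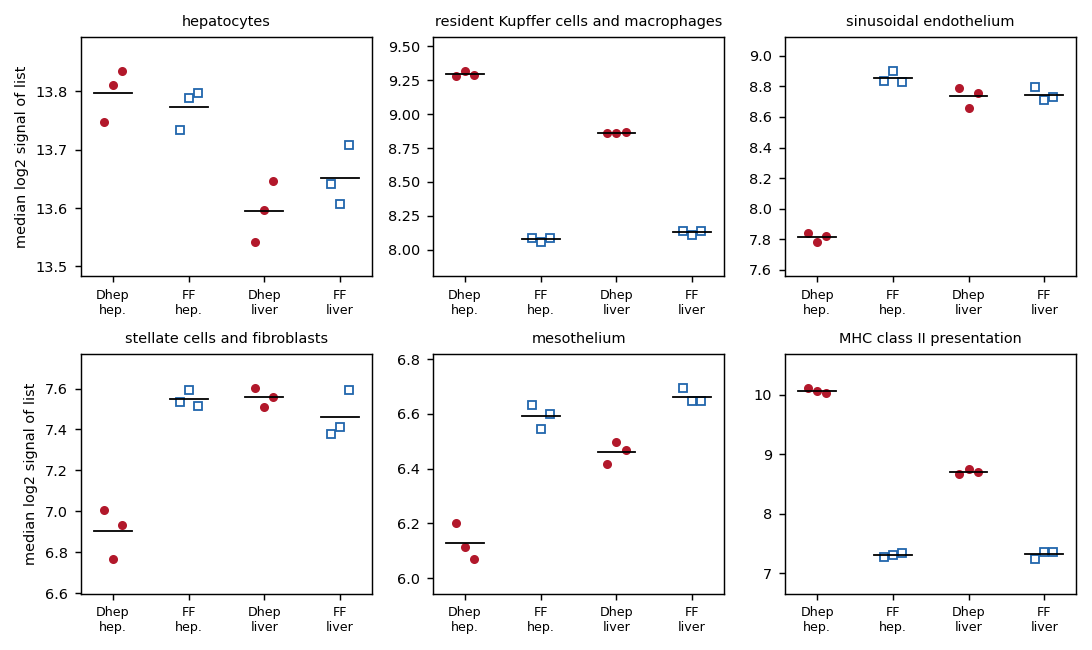
Median log2 signal over the genes of a list on each array (points) with the mean of the 3 arrays (bar), for 5 marker lists and the class II list, in Dhep hepatocytes, FF hepatocytes, Dhep liver and FF liver. Each panel has its own axis, and Dhep hepatocytes stand above FF hepatocytes for macrophage and class II genes and below them for endothelial, stellate and mesothelial markers.

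Sinusoidal endothelium was the largest group of lower markers. Of 31 markers 13 were lower and 0 higher, with a median of -0.83, and the summed signal was 19158 to 20000 on the Dhep arrays against 34243 to 35240 on the FF arrays. Ramp2, a coreceptor for adrenomedullin, had 8.09, 8.28 and 8.07 in Dhep, against 9.75, 9.85 and 9.75 in FF hepatocytes (-1.63). Gpr182 (-1.51), an endothelial scavenger of chemokines, Flt1 (-1.46), a VEGF receptor, and Stab1 (-1.32), a scavenger receptor, also fell, but the calls of Flt1 (-0.96) and Stab1 (-0.86) were lost with median scaling. Of 25 stellate cell and fibroblast markers 8 were lower and 0 higher, with a median of -0.59. Bgn, the proteoglycan biglycan, had 9.10, 9.31 and 9.24 in Dhep, against 10.76, 10.70 and 10.68 in FF hepatocytes (-1.50), and Reln, the secreted glycoprotein reelin, fell by 1.30, a call lost with median scaling (-0.84). Slpi, a protease inhibitor of epithelia, fell by 1.57 and was 1 of 4 lower among 10 mesothelial markers. With median scaling the medians stayed below 0, at -0.52 for endothelium, -0.38 for stellate cells and -0.38 for mesothelium, but only 2, 2 and 1 members kept a lower call. Ramp2, Gpr182, Bgn and Slpi were among those that did. The 35 genes of the extracellular matrix had 6 lower and 1 higher, or 2 lower and 1 higher with median scaling, with Ccn2, a matricellular growth factor, at 7.87, 7.85 and 7.86 in Dhep, against 9.79, 9.78 and 9.90 in FF hepatocytes (-1.96). Fibronectin (Fn1), which hepatocytes make for plasma, was the higher one (1.30, and 0.80 on its other probe).

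**Figure D4:**
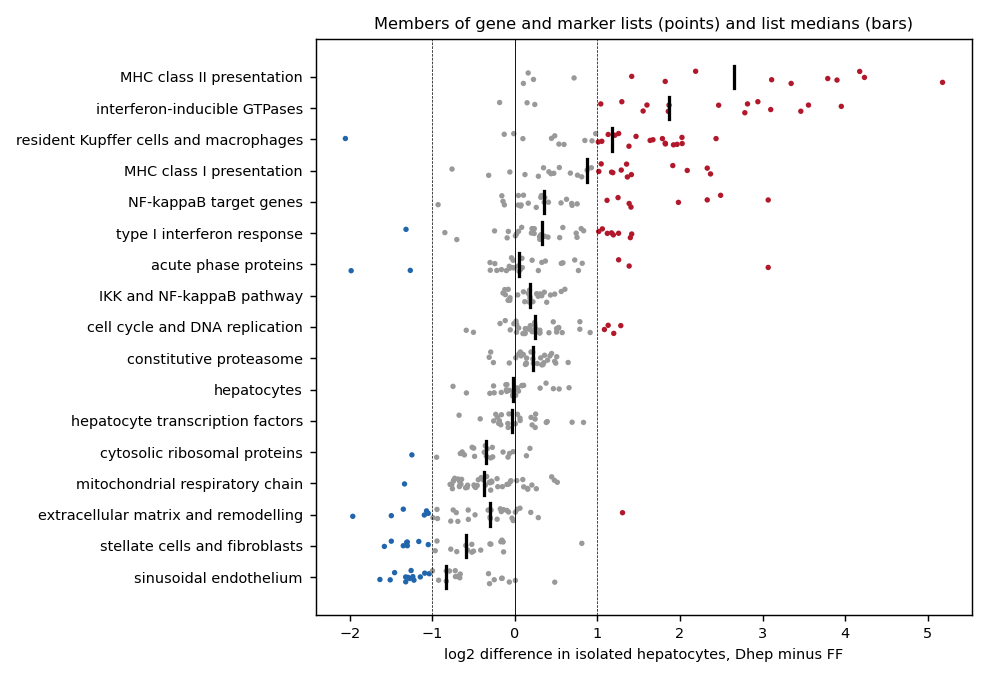
Log2 difference (Dhep minus FF) of each measured member of 17 gene and marker lists in isolated hepatocytes, red for called higher, blue for called lower and grey for not called, with a black bar at the list median. Class II, GTPase and macrophage genes lie to the right, with medians of 2.65, 1.87 and 1.17, and endothelial and stellate markers to the left, with medians of -0.83 and -0.59.

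Metabolic lists are given beside the overall shares of 1.5% higher and 1.22% lower, which leave most genes of any list uncalled. Among 34 PPARα targets and fatty acid oxidation genes 1 rose, the lipid droplet coat protein Plin2 (1.07), and 0 fell. Among 31 genes of lipid synthesis the phosphatidate phosphatase Lpin1 (-1.25) and the lipase inhibitor G0s2 (-1.01) fell, although both calls were lost with median scaling (-0.80 and -0.51). On the brightest probe no gene of cholesterol synthesis (26 measured) or bile acid synthesis and transport (28) was called, Sqle standing at 0.91, with its other probe called at 1.52, and the bile acid importer Slc10a1 at -0.94. In glucose metabolism Hk3, a hexokinase known from myeloid cells, had 8.59, 8.54 and 8.62 in Dhep, against 6.50, 6.56 and 6.63 in FF hepatocytes (2.02). It and Gys2, the liver glycogen synthase (1.02), were the 2 called of 33.

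Of 40 urea cycle and amino acid genes the asparagine synthetase Asns fell (-1.29, and -0.03 on its mildest probe) and 0 rose, but with median scaling Asns stood at -0.88, and 5 genes were higher and 0 lower. Of 42 cytochrome P450 and related genes the carboxylesterase Ces1e fell (-1.52) and 0 rose. In phase II conjugation, the sulfotransferase Sult5a1 had 10.34, 10.35 and 10.38 in Dhep, against 8.59, 8.61 and 8.63 in FF hepatocytes (1.75). Nat8, an N-acetyltransferase, had 7.67, 7.67 and 7.75 in Dhep, against 10.23, 10.21 and 10.22 in FF hepatocytes (-2.53), the widest fall in the phase II list. These arrays were tight within each group for both enzymes. Among solute carriers the lysosomal peptide transporter Slc15a3 (1.58), Slc41a2 (1.29), Slc25a30 (1.21) and Slc13a3 (1.12) rose, and Slc4a4 fell (-1.02, and -0.04 on its other probe), a call lost with median scaling (-0.68). Slc15a3 is known from macrophages and dendritic cells.

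Several housekeeping lists held few calls. Of 22 cytosolic ribosomal protein genes 20 had a negative difference (median -0.35, or -0.15 with median scaling), but only Rpl23 fell (-1.25, and 0.02 on another of its probes). Of 48 respiratory chain genes 38 were negative (median -0.37, or -0.12 with median scaling) and Uqcrq fell (-1.34), a call lost with median scaling, where it stood at -0.87. No gene of the unfolded protein response (27), heat shock (23) or circadian clock (18) lists was called. The remaining lists are given by their counts. Macrophage activation had 5 of 24 higher and 1 lower, monocytes 4 of 13 and 0, lysosome and cathepsins 3 of 28 and 1, and p53 targets 1 of 18 and 0. Periportal genes had 1 of 20 higher and 0 lower, pericentral genes 0 of 22 and 1, NRF2 targets and metallothioneins 1 of 24 and 0, and bile duct markers 1 of 11 and 0. Coagulation had 0 of 24 higher and 1 lower, hepatokines 0 of 28 and 1, and immediate early genes 0 of 27 and 1. The growth hormone axis had 0 of 30 higher and 3 lower (median -0.19, or 0.02 with 2 higher and 1 lower under median scaling), cytoskeleton and junctions 0 of 37 and 5 (median -0.08, or 0.24 with 5 higher and 0 lower under median scaling), and erythroid markers 0 of 8 and 0. The cell cycle list had 4 of 39 higher and 0 lower, led by cyclin D1 (Ccnd1, 1.28).

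The widest falls were single genes of varied function. Erich5 had 9.28, 9.34 and 9.25 in Dhep, against 12.36, 12.15 and 12.31 in FF hepatocytes (-2.99, SE 0.06, limma adjusted p = 1.86e-21). Zxda, a zinc finger gene, had 8.20, 8.11 and 7.95 in Dhep, against 10.63, 10.71 and 10.83 in FF hepatocytes (-2.64). Prf1, the perforin of cytotoxic lymphocytes, had 8.47, 8.45 and 8.47 in Dhep, against 11.07, 10.96 and 11.26 in FF hepatocytes (-2.63). Other T and NK cell markers did not move with Prf1: Nkg7 stood at 0.15, Klrd1 at -0.11 and Cd3e at 0.29. Next came the noncoding RNA 2900060B14Rik (-2.50), Fam126b (-2.20), the rhomboid protease Rhbdl2 (-2.19), the serpin pseudogene Serpina4-ps1 (-2.07), Erdr1 (-2.04), the serine racemase Srr (-1.94, and 0.15 on the mildest of its 3 probes) and Wfdc2 (-1.94). All 15 of the widest falls stayed called with median scaling. So did all 15 of the widest rises, but that scaling moved differences upward.

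Annotation and agreement between probes are given for both directions. Of the higher probes 85.3% had a curated mRNA accession and 12.2% had no gene symbol, against 53.7% and 25.8% of the lower probes and 76.4% and 15.9% of all kept probes. Among called genes with several kept probes, every probe was called for 21 of 103 higher genes and for 9 of 108 lower genes. The remaining probes of the higher genes had the same sign in 100 of 107 cases, with a median of 0.53. Those of the lower genes had the same sign in 106 of 169 cases, with a median of -0.12. Nisch, an imidazoline receptor gene, shows the contrast, with -1.87 on 1 of its 5 kept probes and up to 0.51 on the others. Whether the directions differ in this respect was not tested.

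The difference in hepatocytes was set against that in whole liver of the same genotypes, where 61 genes were higher in Dhep (0.508%) and 12 lower (0.0999%). The genotype difference was larger in hepatocytes than in liver for 107 genes (0.891%) and smaller, or more negative, for 188 (1.57%), by limma's interaction term at the same thresholds. This balance depended on the normalization. Counted by probe it was 171 larger and 408 smaller, but 1900 and 112 with median scaling. Counted by RNA sample, the interaction sets 4 single samples against each other and has no test. Differences between mice cannot be told apart in it from differences between preparations. Of the 278 probes higher in Dhep hepatocytes, 261 had the same sign in liver, 77 were called in liver too, and 98 differed more in hepatocytes by the interaction. The median liver difference of all 278 was 0.63. Of the 283 lower probes 112 had the same sign in liver, 5 were called there and 225 had a called interaction. The median liver difference of all 283 was 0.07. On 116 of the 283 the FF hepatocytes stood at least 1 above each of the other 3 groups, and on 35 the Dhep hepatocytes stood at least 1 below each of them. For the higher probes the Dhep hepatocytes stood at least 1 above all others on 64, and the FF hepatocytes at least 1 below all others on 8.

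Among the class II genes the hepatocyte difference exceeded that in liver by 2.17 for Cd74, and 8 of the 14 had a called interaction, among them Ciita, whose FF levels lay under the floor. Among the GTPases it exceeded that in liver by 2.91 for Gm12250, a GTPase gene outside the list, and 12 of the 17 had one. Both lists also rose in whole liver. There 8 of the 14 class II genes were called higher in Dhep and 0 lower, with a median of 1.28. Of the 17 GTPases 8 were called higher in liver and 0 lower, with a median of 0.93. Macrophage markers had a called interaction for 2 higher and 1 lower of 28, and their median in liver was 0.85. The summed macrophage signal was 26478 to 27202 in Dhep liver and 14949 to 15073 in FF liver. Endothelial markers had no called member in liver and 14 of 31 a called interaction, with a liver median of 0.04. Their summed signal in Dhep liver was 27030 to 27756 and in FF liver 25314 to 25367. The hepatocyte arrays of Dhep therefore stood above both livers in macrophage signal and below both in endothelial signal. Those of FF stood above both livers in endothelial signal, at 34243 to 35240. In macrophage signal the FF hepatocytes, at 14480 to 14840, stood just under FF liver.

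**Figure D5:**
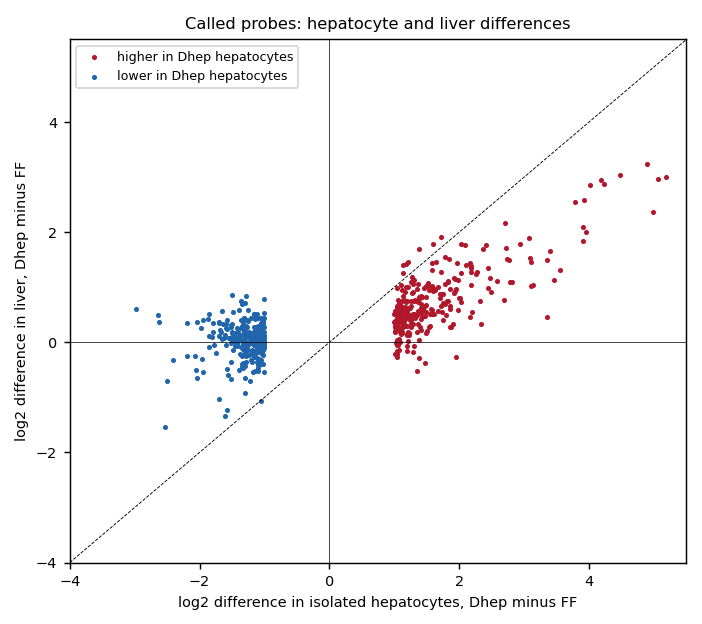
Log2 difference (Dhep minus FF) in liver against that in isolated hepatocytes for the 278 higher and 283 lower probes, with a dashed line of equal differences. Higher probes lie mostly above 0 in liver and below the line, and lower probes scatter around 0 in liver.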

How the data were processed

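RNA of 12 arrays was measured on Illumina mouse bead arrays. The authors deposited a table of raw linear intensity, 1 value per probe and array, and another of intensity they had normalized, by a method that no source used here names. BeadStudio is named in the submitters' processing notes, without a version. With no detection p-values, the raw table underwent normexp background correction (offset 50), a log2 transform and quantile normalization, all in limma 3.58.1 (R 4.3.3). Probes above the median of all probe means on every array of at least 1 group were kept.

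All 12 arrays entered 1 linear model with a mean per group (lmFit, eBayes), which left 8 residual degrees of freedom and took 14.8 from the prior, with Benjamini-Hochberg adjustment over all 22859 probes. SE is limma's. It measures the precision of the arrays, and the variation between mice was not measured. A fit with the replicate number as a block was also made. Same-numbered arrays did not pair by the correlation of their deviations. The fit was tested on simulated data.

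Of 45281 probes, 34885 carried 1 symbol and 18 several. Symbols were updated through RefSeq for 34818 probes, and 67 kept the name of the platform table. A gene was represented by its brightest kept probe, and other probes are given beside it where the text turns on a call they do not share. Named genes were the 15 largest called differences each way without overlap, called members of 43 gene lists and 13 marker lists and up to 3 further members of each, Ikbkb, Ikbkg, Alb, and the 10 largest interaction differences each way. Further members named by role, and Nisch, were chosen after their values were seen. The members and lists were chosen with earlier results of these data known. Alternatives were other background, scaling, filter, prior and threshold settings, the authors' table, hepatocyte arrays alone, and leaving out each array. Figures used matplotlib 3.10.9 and Python 3.11.15.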

Additional observations from a re-analysis of the deposited data

Results flagged for a closer look

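Of the 30 genes with the 15 largest differences each way in isolated hepatocytes, 29 had a genotype difference (Dhep minus FF) that differed between hepatocytes and liver by limma's interaction term, 15 with the hepatocyte difference above that in liver and 14 with it below. These genes were picked for their hepatocyte difference, which is itself a part of the interaction. The count of 29 was therefore largely set by the choice and does not show that the differences are particular to hepatocytes. The values here are the hepatocyte difference minus the liver difference, on the log2 scale. Among the GTPases it was 2.91 for Gm12250, 2.34 for Tgtp1, 2.24 for Gbp2b, 2.10 for Gbp3, 1.95 for Gvin1 and 1.16 for Igtp. Among the class II genes it was 2.17 for Cd74, 2.08 for H2-DMa, 1.85 for H2-DMb1, 1.66 for H2-DMb2, 1.44 for H2-Ab1, 1.24 for H2-Aa and 1.24 for H2-Eb1. Ubd stood at 1.55 and Lcn2 at 1.18.

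Among the genes lower in Dhep hepatocytes it was -3.59 for Erich5, -3.12 for Zxda, -2.99 for Prf1, -2.53 for Rhbdl2, -2.40 for Ifngr2, -2.35 for Srr and -2.23 for Hamp2. Fam126b stood at -1.95, Serpina4-ps1 at -1.81, 2900060B14Rik at -1.79, Ccn2 at -1.65, Cd163 at -1.56, Wfdc2 at -1.41 and Erdr1 at -1.39. For 7 of the 29 genes the liver difference had the opposite sign.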

How the results depend on the processing

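The 3 arrays of a group appear to repeat 1 RNA sample, so variation between mice was not measured, and values near the floor of 6.06 carry little signal over background. With 278 probes higher and 283 lower in hepatocytes, 115 and 21 in liver, and 171 with a larger and 408 with a smaller genotype difference in hepatocytes, scaling to a common median gave 914 and 73 in hepatocytes and 1900 and 112 for the interaction, and moved the median of all probes to 0.17 and 0.23; the cause was not tested. Mx2 stood at 0.16 with that scaling, against -0.18. An offset of 16 in place of 50 gave 497 and 553 in hepatocytes, 182 higher in liver, and 362 and 754 for the interaction. The test against a fold of 1.5 gave 520 and 652, 174 and 34, and 306 and 638, and no fold threshold gave 6322 and 5990, 2990 and 3361, and 5467 and 4857, both of which admit smaller differences by construction. The authors' normalized table gave 209 higher and 200 lower in hepatocytes, and 113 probes with a larger genotype difference in hepatocytes. Leaving out 1 array gave 274 to 286 higher and 273 to 294 lower in hepatocytes, 112 to 117 and 20 to 22 in liver, and 169 to 180 and 400 to 423 for the interaction. The call of Slc40a1 was lost without hepatocyte array Dhep 1, FF 1 or FF 3 (0.98 to 1.00, just under the threshold), that of Slc4a4 without Dhep 1 (-0.99) and that of G0s2 without Dhep 3 (-0.96) or FF 2 (-0.99). With the authors' table the calls of C1s1, Ccl24, Cxcl10, Gys2, H2-M3, S100a8 and Tlr13 were among 9 lost, at values of 0.88 to 0.98. The replicate number as a block gave the same counts, 278 and 283, and same-numbered arrays correlated at -0.049 to 0.071 in their deviations, so the numbers do not pair the arrays.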
